A study of Mus musculus with 9 samples.

Results

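The Notch genes described here are 3 receptors (Notch1, Notch2 and Notch3), the DNA-binding partner Rbpj and the coactivator Maml1, and the target genes Dtx1, Hes1, Hes5, Hey1 and Nrarp. These 10 genes were taken by symbol from a table of 46078 mouse genes, and each symbol matched exactly 1 row. Transcript 3′ ends had been sequenced in thymic T cell lymphomas driven by MYCN (6 libraries) and, as controls, in splenic CD4+ T cells (3 libraries), all of strain C57BL/6J. The labels used here give no age, sex or transgene construct, and do not say how the CD4+ T cells were purified or whether the lymphomas came from separate animals. Each library keeps the number in its label (lymphoma 34, 53, 56, 70, 72 and 86, and CD4 1, 2 and 3), and p-values measure the spread between these libraries only.

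Notch receptors are membrane proteins that are cut when a ligand on a neighbouring cell binds them. The released intracellular part enters the nucleus, joins RBPJ on DNA, and recruits a Mastermind protein such as MAML1, which turns a repressed gene into an active one. In the thymus the pathway is required for early progenitors to become T cells, it is switched down as thymocytes mature, and activating NOTCH1 mutations are frequent in T cell leukaemia. In the spleen, NOTCH2 is needed for marginal zone B cells, in which Dtx1 is a well known target.

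Reads in genes ranged from 11170704 to 15769679 in lymphoma and from 8099960 to 10808828 in CD4. Levels are given as CPM, counts per 1000000 of the library size after TMM scaling. Lymphoma 53 stood apart, with a mean correlation of 0.891 with the other lymphomas, while the other 5 had 0.936 to 0.943. Lymphomas 34, 70 and 72 had the same most used T cell receptor segment, Trbv12-1, on 73 to 87 Trbv counts each. Whether they are independent was not tested, and a fit with these 3 summed is given where it changes a call. Counts of mouse Mycn did not exceed 3 per lymphoma, so the driver could not be checked by it. Female-specific Xist stood at 4.66 to 11.3 CPM in lymphoma and at 493 to 582 CPM in CD4, so sex, tissue and group cannot be told apart.

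The T cell marker Cd3e had 150 to 217 CPM in lymphoma and 138 to 192 CPM in CD4, and of 13 T cell markers 10 did not pass the test and 3 fell. Cd4 itself ranged from 6.04 to 71.9 CPM in lymphoma and from 199 to 263 CPM in CD4. The CD4 preparations also held B cell transcripts: 15 B cell markers summed to 3102 to 3585 CPM there and to 296 to 603 CPM in lymphoma. Of these markers 14 were lower in lymphoma, and Pou2af1 did not pass the test. No B cell marker was at 0 in all lymphomas. Markers of plasmacytoid dendritic cells moved the same way, with 6 of 8 lower, among them Siglech (64.6 and 0.156 CPM on average in CD4 and lymphoma), and sums of 516 to 592 CPM in CD4 and 108 to 162 CPM in lymphoma. Of 14 myeloid markers 5 were lower, including Ctss and Itgax, and 9 did not pass the test, with sums of 946 to 1226 CPM in CD4 and 174 to 2253 CPM in lymphoma. Fewer cells of a type and less RNA per cell cannot be told apart in such bulk samples.

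Lymphoma was compared with CD4 by edgeR's quasi-likelihood test over 15401 genes with Benjamini-Hochberg adjustment, and a gene was called changed at an adjusted p under 0.05. Of the 10 Notch genes, 8 passed the filter on low counts. Rbpj and Hes5 rose, and Notch1, Notch3, Dtx1 and Hes1 fell, while Notch2 and Maml1 did not pass the test and Hey1 and Nrarp were too low to be tested. That is 6 of 8 genes changed, where 46.6% of all tested genes were called, 24.7% as higher and 21.9% as lower. Groups did not overlap in CPM for 5 of the 8, against 44.9% of all tested genes. Both counts include Notch3, which passed the filter through the CD4 libraries alone, so that its direction was fixed by the filter; of the other 7 genes, 5 changed, 2 higher and 3 lower. The number called was 3 with lymphomas 34, 70 and 72 summed and 2 without CD4 3, and the pair that kept its call in every fit run was Dtx1 and Hes5. As the 10 genes were chosen with earlier results of these data known, these counts are a description only.

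**Figure D1:**
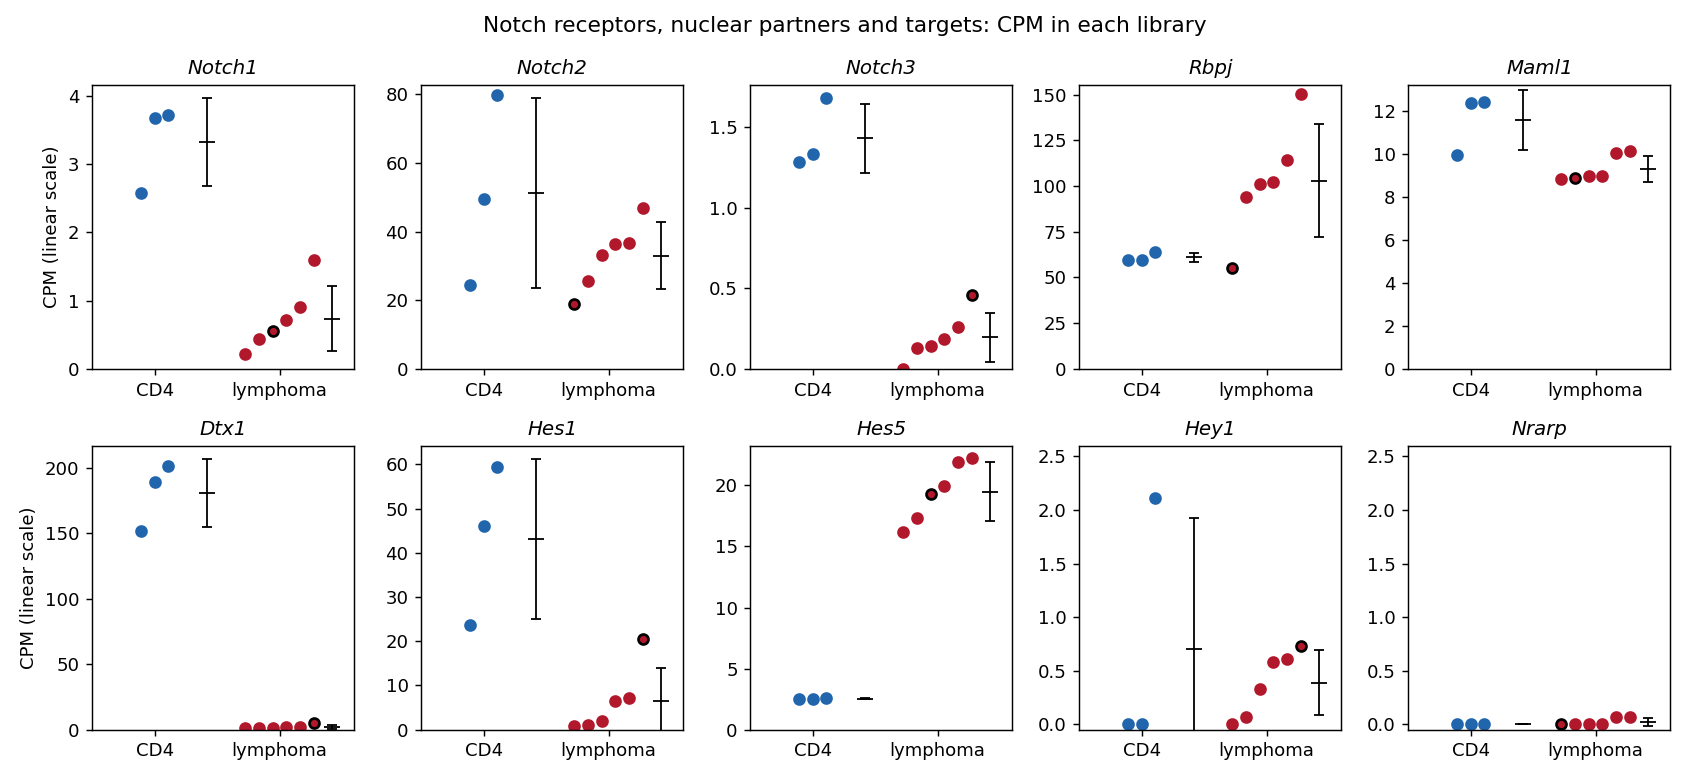
CPM on linear axes for the 10 genes in each library, CD4 in blue and lymphoma in red, with lymphoma 53 ringed in black and the mean ± SD drawn to the right of each group (bars are cut at the axis where they pass below 0). As fold changes, Dtx1 and Hes5 are the tested genes whose groups lie farthest apart, in opposite directions. On log2 CPM, which is not drawn, Hes1 spreads most among lymphomas, from 0.939 to 20.5 CPM.

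Of the 3 receptors, Notch1 was scarce and lower in lymphoma, and Notch2 was more abundant and did not pass the test. Notch3 was scarce too, and its direction was fixed by the filter. Notch1 (ENSMUSG00000026923, GRCm38 chr2:26457903-26516663, minus strand) is the main receptor of thymocyte progenitors. It was scarce everywhere, with counts of 14, 6, 6, 26, 11 and 3 (lymphomas 34, 53, 56, 70, 72 and 86) against 27, 31 and 40 (CD4 1, 2 and 3). In CPM the lymphomas ran from 0.217 through a median of 0.634 to 1.59, and the CD4 libraries had 2.58, 3.72 and 3.67. All 6 lymphomas lay below all 3 CD4 libraries, and lymphoma 70 came nearest to them. The log2 fold change of Notch1 was -2.15 (SE 0.646), or 4.44-fold lower, with an edgeR adjusted p of 0.0167. The call was lost without CD4 2 (adjusted p 0.0540) and without CD4 3 (adjusted p 0.0549).

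Notch2 (ENSMUSG00000027878, GRCm38 chr3:98013527-98150361, plus strand) had more reads than the other receptors in every library. It had 18.9 CPM in lymphoma 53, 25.5 in 70, 33.1 in 72, 36.5 in 56, 36.7 in 34 and 46.9 in 86. The CD4 libraries were the more scattered group, with 79.7, 24.4 and 49.4 CPM in CD4 1, 2 and 3, so the groups overlapped. The log2 fold change of Notch2 was -0.64 (SE 0.340) and the edgeR adjusted p 0.148. Single CD4 libraries decided the value: without CD4 2 the change was -0.96 and passed, with an edgeR adjusted p of 0.0327, whereas without CD4 1 it was -0.15. Short predicted gene models lie within Notch2 on its own strand (Gm42819 and Gm42820), and they took 453 and 379 counts in lymphoma and 718 and 545 counts in CD4 in all.

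Notch3 (ENSMUSG00000038146, GRCm38 chr17:32120820-32166852, minus strand) is a receptor that Notch1 signalling itself induces in thymocytes. Lymphomas 34, 53, 56, 70, 72 and 86 gave 4, 5, 0, 3, 2 and 2 reads, while every CD4 library gave 14. Its CPM were at most 0.457 in lymphoma and at least 1.28 in CD4, with no overlap. Since it passed the filter through the CD4 libraries alone, its fitted value of -2.83 on the log2 scale (SE 0.882, adjusted p 0.0199 by edgeR) is given as a description and supports no fall by itself. That call was lost in 4 of 17 alternatives, with adjusted p of 0.0502 to 0.0664, among them the fit with lymphomas 34, 70 and 72 summed (0.0512). The fourth receptor, Notch4, which is best known from blood vessels, passed the filter through libraries of both groups and was lower in lymphoma. It averaged 5.96 ± 1.94 CPM in CD4 (SD, n = 3) and 1.83 ± 0.466 CPM in lymphoma (SD, n = 6), which is -1.70 on the log2 scale (SE 0.440, adjusted p 0.00764 by edgeR).

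In the nucleus the DNA-binding partner rose and the coactivator did not change detectably. Rbpj (ENSMUSG00000039191, GRCm38 chr5:53466152-53657362, plus strand) had 102, 94.1, 114, 151 and 101 CPM in lymphomas 34, 56, 70, 72 and 86, and 55.3 CPM in lymphoma 53. The CD4 libraries were tightly grouped at 64.0, 59.4 and 59.8 CPM. Of the 6, 5 lymphomas lay above all CD4 libraries and lymphoma 53 lay below them all. Rbpj had a log2 fold change of 0.75 (SE 0.255), or 1.69-fold higher, with an edgeR adjusted p of 0.0293. Without lymphoma 53 it was 0.88 (edgeR adjusted p 0.000959), and the call was lost on leaving out any CD4 library, with upper quartile scaling (adjusted p 0.0559) and with lymphomas 34, 70 and 72 summed (adjusted p 0.0700). Rbpj was the only Notch gene that met the rule for naming genes of like pattern. Over the 6 lymphomas and 9423 genes, the log2 CPM of Zfp395 (r = 0.997) and Mga (r = 0.995) followed it most closely. All 3 genes were lowest in lymphoma 53 and highest in lymphoma 72, and with 6 points picked from so many genes these r are a description only.

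Maml1 (ENSMUSG00000050567, GRCm38 chr11:50255634-50292311, minus strand) had the smallest spread of log2 CPM among lymphomas of the 8 tested Notch genes. It had 8.82 to 10.1 CPM in lymphoma, with a median of 8.96, and 12.4, 9.96 and 12.4 CPM in CD4 1, 2 and 3. CD4 2 lay within the range of the lymphomas. Its log2 fold change was -0.32 (SE 0.242, edgeR adjusted p 0.308). An antisense gene model over Maml1, Gm26542, had 125 counts in lymphoma and 7 in CD4, against 797 and 348 for Maml1. Without a stated strand setting their reads cannot be told apart.

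The targets did not move together. Dtx1 encodes Deltex, a ubiquitin ligase that binds the Notch intracellular domain, and Hes5 encodes a basic helix-loop-helix repressor. The bases before their start sites are shown because these genes carried the largest and opposite changes among the targets. They are the 250 bases upstream of the RefSeq start, 5′ to 3′ on the gene's strand (GRCm38.p6, Hes5 at chr4:154960673-154960922, plus strand, and Dtx1 at chr5:120711670-120711919, minus strand). Capitals mark TGGGAA or its reverse complement TTCCCA, the core that RBPJ is known to bind, searched on both strands.
Hes5: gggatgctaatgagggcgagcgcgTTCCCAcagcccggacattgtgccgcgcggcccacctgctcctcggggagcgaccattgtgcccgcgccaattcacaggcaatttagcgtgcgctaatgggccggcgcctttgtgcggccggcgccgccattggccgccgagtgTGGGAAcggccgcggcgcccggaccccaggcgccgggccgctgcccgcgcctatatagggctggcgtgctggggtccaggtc
Dtx1: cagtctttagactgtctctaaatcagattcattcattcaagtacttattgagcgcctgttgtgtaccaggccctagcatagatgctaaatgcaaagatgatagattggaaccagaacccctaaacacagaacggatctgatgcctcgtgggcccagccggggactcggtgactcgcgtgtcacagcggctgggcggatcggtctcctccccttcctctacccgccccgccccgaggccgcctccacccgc

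The Hes5 window held 2 matches, whose first bases lie 226 and 82 bases before the start, on opposite strands. The Dtx1 window held 0. Of 32841 such windows in the RefSeq table, 21.6% held at least 1 match and 2.76% held 2 or more. Windows were at hand for 8 of the 10 genes, not for Hes1 and Hey1. Besides Hes5, matches were found before Rbpj, which has 2 listed starts with overlapping windows: 2 matches for the upstream start and 1, at the same site, for the other. The windows of Notch1, Notch2, Notch3, Maml1 and Nrarp held 0. No binding was measured in these libraries.

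Dtx1 (ENSMUSG00000029603, GRCm38 chr5:120680202-120711927, minus strand) showed the largest difference of the 10 genes. It had 2107, 1263 and 2062 counts in CD4 1, 2 and 3 (201, 152 and 189 CPM). In lymphoma it had 19 to 55 counts, or 1.24 CPM at the lowest, 1.65 at the median and 5.02 in lymphoma 53. Every lymphoma lay far below every CD4 library, and lymphoma 53 was the highest of the 6. Dtx1 had a log2 fold change of -6.41 (SE 0.382), or 84.9-fold lower, with an edgeR adjusted p of 3.98e-07. It stayed between -6.94 and -6.23 in all 18 alternatives, each with a call.

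Beside Dtx1 stand the B cell transcripts of the CD4 preparations. Cr2, the complement receptor that is high on marginal zone B cells, had 449, 368 and 325 CPM in CD4 1, 2 and 3 and 1.73 to 7.47 CPM in lymphoma. Its log2 fold change was -6.52 (SE 0.382, edgeR adjusted p 3.98e-07). Of 8 marginal zone B cell genes, 6 fell, Cd9 rose and Plac8 did not pass the test. Cr2 had the largest fall of the 8, and their median log2 fold change was -2.07. For the 15 B cell markers the median was -6.70. The part of the B cell, dendritic cell and myeloid transcripts in the levels of Dtx1 and Notch2 was not tested. Nor was it tested for any other gene called lower in lymphoma, here or below. Of 6 tested markers of thymic epithelium and stroma, 3 were called higher in lymphoma, 1 lower, and 2 did not pass. Of all tested genes 24.7% were called higher. Dcn, 1 of the 3, had 0 counts in CD4, so its direction was fixed by the filter. The 13 listed markers summed to 32.4 to 85.8 CPM in lymphoma and 50.5 to 73.0 CPM in CD4. The part of such transcripts in genes called higher in lymphoma was not tested either.

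**Figure D2:**
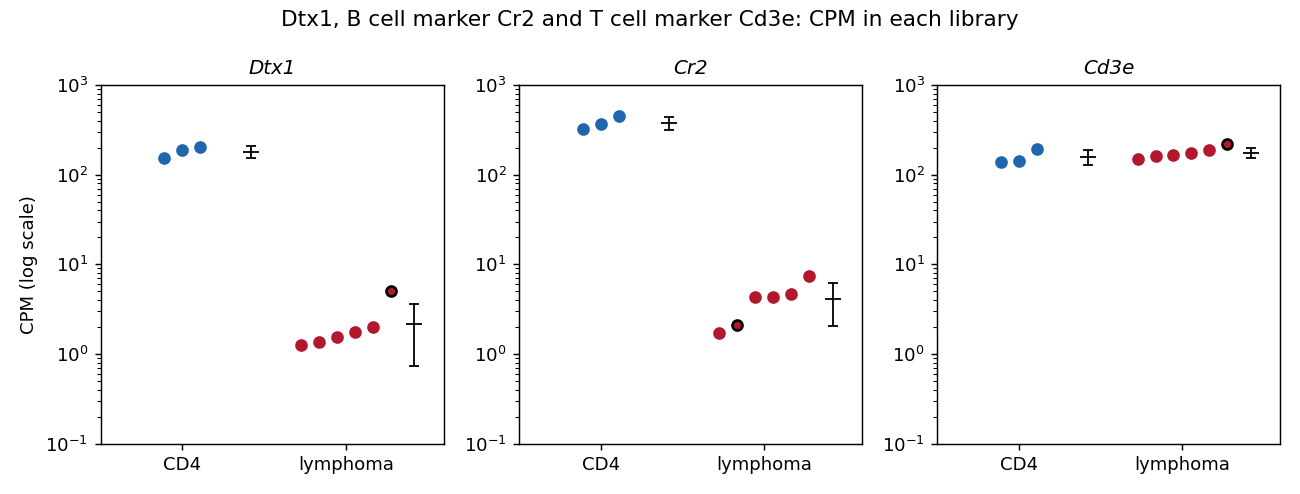
CPM on log axes in each library for Dtx1, the B cell marker Cr2 and the T cell marker Cd3e, with lymphoma 53 ringed in black and the mean ± SD to the right of each group. Dtx1 and Cr2 lie higher in all CD4 libraries than in any lymphoma, whereas Cd3e overlaps between the groups.

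Hes1 (ENSMUSG00000022528, GRCm38 chr16:30064384-30067796, plus strand), a repressor of the same family as Hes5 and a direct Notch target in thymocytes, fell with a wide spread. CD4 1, 2 and 3 had 46.1, 23.8 and 59.4 CPM. Lymphomas 56 and 86 had 0.946 and 0.939 CPM (13 counts each), lymphoma 34 had 2.06, lymphomas 70 and 72 had 6.55 and 7.20, and lymphoma 53 had 20.5 CPM (225 counts). All lymphomas were below all CD4 libraries, lymphoma 53 only narrowly. The log2 fold change of Hes1 was -2.77 (SE 0.848), or 6.81-fold lower, with an edgeR adjusted p of 0.0225. Without lymphoma 53 it was -3.60 (edgeR adjusted p 0.00214). The call was lost without CD4 1 (adjusted p 0.0525), without CD4 3 (0.0749), with lymphomas 34, 70 and 72 summed (0.0697) and without a filter (0.0715).

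Hes5 (ENSMUSG00000048001, GRCm38 chr4:154960923-154962371, plus strand), whose upstream sequence is printed above, was the target that rose. Its counts were 310, 211, 306, 283, 335 and 224 (lymphomas 34, 53, 56, 70, 72 and 86) and 27, 21 and 27 (CD4 1, 2 and 3). In CPM these were 16.2 to 22.3 in lymphoma, with a median of 19.6, and 2.58, 2.52 and 2.48 in CD4. Each group was tight, and lymphoma 53 lay among the other lymphomas here. Hes5 had a log2 fold change of 2.94 (SE 0.266), or 7.70-fold higher, with an edgeR adjusted p of 5.67e-06. All 18 alternatives kept the call; the lowest value, 2.29, came once the trends with GC content and length were removed. The antisense gene model over Hes5, Gm20421, had 0 counts.

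Hey1 and Nrarp gave few reads. Hey1 (ENSMUSG00000040289, GRCm38 chr3:8663359-8667256, minus strand), a relative of the HES repressors, gave 9, 8, 0, 10, 5 and 1 reads from lymphomas 34, 53, 56, 70, 72 and 86. In CD4 all 23 of its counts came from library 3. Without a filter the edgeR adjusted p of Hey1 was 0.655. Nrarp (ENSMUSG00000078202, GRCm38 chr2:25180758-25183339, plus strand), which encodes a feedback inhibitor that binds the Notch complex, had 1 count in each of lymphomas 34 and 72 and 0 in the other 7 libraries. A count of 0 allows up to 0.190 to 0.269 counts per 1000000 gene counts in a lymphoma and up to 0.370 in a CD4 library. Nrarp was therefore not detectable at this depth in either group.

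**Figure D3:**
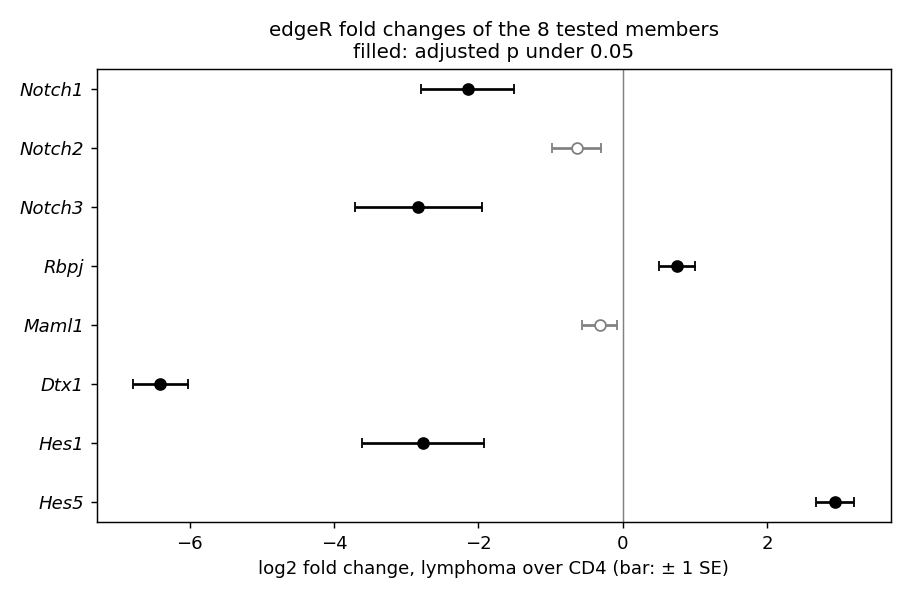
Log2 fold change of lymphoma over CD4 from edgeR for the 8 tested Notch genes, with bars of ± 1 SE, filled where the adjusted p is under 0.05. Dtx1 at -6.41 and Hes5 at 2.94 mark the ends, and Notch2 and Maml1 are the open symbols. The value of Notch3, which passed the filter through CD4 alone, is a description.

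Among lymphomas, some Notch genes were among the steadier of all tested genes and Hes1 was among the more variable. The SD of log2 CPM over the 6 lymphomas was 0.0927 for Maml1 and 0.18 for Hes5, where the median over all tested genes was 0.47. These values stood at percentiles 0.929 and 8.27 of all tested genes. Hes1 was at the other end, with an SD of 1.71 (percentile 96.3) and a 21.9-fold span between its highest and lowest lymphoma. Notch2 (SD 0.46) and Rbpj (SD 0.47) were near the median. Notch1 (0.76), Notch3 (0.65) and Dtx1 (0.69) were above it, at low counts where counting error adds to the spread.

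Lymphoma 53 made much of that spread for some genes and not for others. It was highest of the 6 in CPM for Dtx1, Hes1, Notch3 and Hey1, and lowest for Notch2 and Rbpj. For Notch3 (5 counts, and 4 in lymphoma 34) and Hey1 (8 counts, and 10 in lymphoma 70) the rank rests on few reads. Without lymphoma 53 the SD fell from 0.69 to 0.25 for Dtx1 and from 0.47 to 0.27 for Rbpj. For Hes1 the SD without it was still 1.35, since lymphomas 70 and 72 stood well above 56 and 86. Notch1 did not follow this order: its highest lymphoma was 70 and its lowest 86. The labels give no groups among the lymphomas, so no groups of lymphomas were compared. A check for single outlying lymphomas is given among the flagged results.

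**Figure D4:**
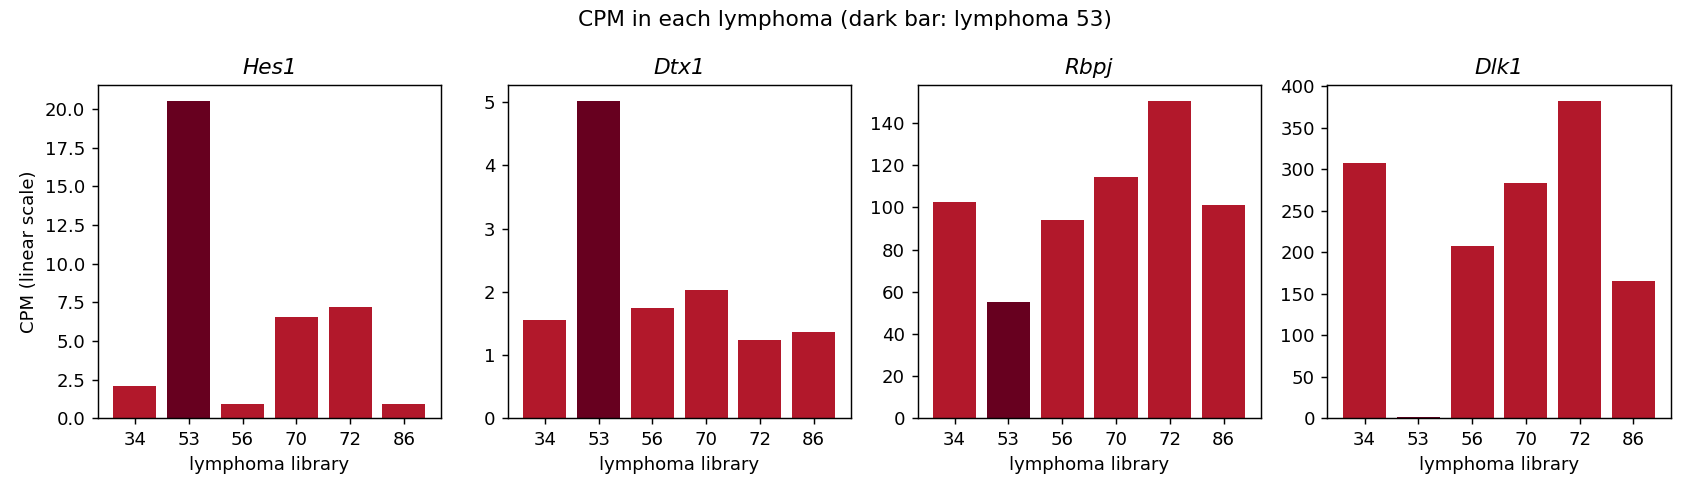
CPM on linear axes in each lymphoma for Hes1, Dtx1, Rbpj and the Delta-like gene Dlk1, with lymphoma 53 as the dark bar. Lymphoma 53 is highest for Hes1 (20.5 CPM) and Dtx1 (5.02 CPM) and lowest for Rbpj (55.3 CPM) and Dlk1 (1.10 CPM).

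The wider pathway was read from 79 further genes in 10 lists by role, of which 68 were tested. Of these, 15 rose, 27 fell and 26 did not pass the test, that is 61.8% changed against the 46.6% of all tested genes. Heyl, Il2ra and Myc passed the filter through 1 group alone; of the other 65 genes, 39 changed, 14 higher and 25 lower. The 14 include Dlk1, for which 6 lymphomas and 1 CD4 library were over the cut of the filter. It too could pass only through lymphoma. The median log2 fold change of the 68 genes was -0.28, and that of all tested genes was 0.04. The lists were chosen with earlier results of these data known, so these shares and medians are a description only. Named below are the 2 largest rises and 2 largest falls of each list that passed the test, with changes on the log2 scale, all by edgeR.

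Ligands of the Delta and Jagged families were scarce. Dll1, Dll3, Dll4 and Dlk2 were too low to be tested, and Jag1 and Jag2, at means of 2.55 and 1.51 CPM in lymphoma, did not pass the test (edgeR adjusted p 0.418 and 0.671). The exception was Dlk1, a Delta-like protein that lacks the domain by which canonical ligands engage Notch. It had 307, 207, 284, 382 and 165 CPM in lymphomas 34, 56, 70, 72 and 86, but 1.10 CPM in lymphoma 53 and 0.477, 1.08 and 0.459 CPM in CD4 1, 2 and 3. The log2 fold change of Dlk1 was 8.41 (SE 1.72, edgeR adjusted p 0.00389), and without lymphoma 53 it was 8.68 with an SE of 0.433. With 1 CD4 library over the cut, Dlk1 could pass the filter only through lymphoma, so these values are a description. The fitted change does not describe lymphoma 53, whose level was almost that of CD4 2, and the call was lost with limma voom (adjusted p 0.372).

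All 4 tested ubiquitin ligases of the list for ligand endocytosis changed, in opposite directions, where 46.6% of all tested genes were called. Neurl1b, a Neuralized protein, rose by 2.69 (SE 0.394, edgeR adjusted p 0.000184) from 6.50 to 42.0 CPM on average. Its relative Neurl3 fell by 4.21 (SE 0.317, edgeR adjusted p 1.46e-06) from 90.9 to 4.92 CPM. Mib2 fell by 0.92 (SE 0.222), and Mib1 rose by 0.63 (SE 0.237) with a call that was lost in 15 of 18 alternatives, among them the summed fit (adjusted p 0.112).

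Of 5 receptor glycosylation genes 2 changed, and of 10 genes of receptor cleavage 3 changed, shares of 40% and 30% beside the 46.6% of all tested genes. Lfng, a Fringe enzyme that extends sugars on Notch and so sets its ligand preference, fell by 1.61 (SE 0.191, edgeR adjusted p 4.03e-05), with 33.4 to 61.4 CPM in lymphoma and 123 to 165 CPM in CD4. Poglut1, which adds glucose to the receptor, rose by 0.72 (SE 0.178). The other 3 glycosylation genes, among them Pofut1, did not pass the test. Among the cleavage genes, Psen2, a catalytic subunit of gamma-secretase, fell by 0.98 (SE 0.211, edgeR adjusted p 0.00259), and the sheddase Adam17 fell by 0.56 (SE 0.154) with a call lost in 2 alternatives. Aph1a, another gamma-secretase subunit, rose by 0.80 (SE 0.268), a call lost in 5 of 18 alternatives, among them the summed fit (adjusted p 0.0689).

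Of 12 genes of receptor turnover 6 fell, 2 rose and 4 did not pass the test, where 21.9% of all tested genes were called lower and 24.7% higher. Nedd4, a ubiquitin ligase, rose by 3.31 (SE 0.343, edgeR adjusted p 1.62e-05), with 51.3 ± 6.56 CPM in CD4 (SD, n = 3) and 508 ± 170 CPM in lymphoma (SD, n = 6), and lymphoma 53 was again lowest of its group at 220 CPM. Dtx3, a Deltex relative, rose by 1.02 (SE 0.273), but its call was lost once GC content and length trends were removed (adjusted p 0.0766). Nedd4l fell by 3.23 (SE 0.940). It had 140 counts in lymphoma 53 and 5 to 22 counts in each of the other lymphomas, and without lymphoma 53 its log2 fold change was -4.85. Its call was lost without a filter (adjusted p 0.0575). Aak1, a kinase of endocytosis, fell by 2.40 (SE 0.664), a call lost in the fit with GC content and length (-1.46, adjusted p 0.105).

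Coactivators other than Maml1 changed in 6 of 9 cases (66.7%), with 4 lower and 2 higher, beside 46.6% of all tested genes. Maml2, the relative of Maml1, fell by 3.85 (SE 0.696, edgeR adjusted p 0.00128), with 67.9 ± 12.0 CPM in CD4 (SD, n = 3) and 4.67 ± 4.54 CPM in lymphoma (SD, n = 6). The acetyltransferase gene Kat2b fell by 1.99 (SE 0.255) while its paralogue Kat2a rose by 1.09 (SE 0.225). Snw1, which encodes SKIP, rose by 0.48 (SE 0.154), a call lost with upper quartile scaling and without CD4 2. Of 13 tested corepressor genes, 2 rose, 4 fell and 7 did not pass, a share changed of 46.2%, near that of all tested genes. Ctbp1 rose by 1.05 (SE 0.206) and Hdac1 by 0.91 (SE 0.220), and the Groucho gene Tle4 fell by 2.31 (SE 0.171, edgeR adjusted p 1.32e-06). Tle1 fell by 2.67 (SE 0.909), a call lost in 5 of 17 alternatives. Lymphoma 53 was its highest lymphoma, and without it the change was -3.68.

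Of the other HES and HEY genes, Hes6 and Heyl were tested. Hes6 had 53.6 to 87.7 CPM in lymphoma and 41.5 to 49.6 CPM in CD4, a rise of 0.63 (SE 0.184, edgeR adjusted p 0.0148). It was 0.04 with GC content and length trends removed (adjusted p 0.856) and the call was also lost without CD4 3. Heyl passed the filter through lymphoma libraries alone, so no call is read from it: it was at 0 in each CD4 library and gave 5, 3, 11, 13, 33 and 3 reads from lymphomas 34, 53, 56, 70, 72 and 86. Its mean was at least 2.06-fold higher in lymphoma against a floor of 3 counts per CD4 library. That bound does not describe lymphomas 34, 53 and 86, which lay at 0.322 CPM or less.

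Genes known as Notch targets in thymocytes were read beside all tested genes, of which 21.9% were called lower and 24.7% higher. Of 9 tested targets, 7 were called lower and 2 higher, and the median log2 fold change was -1.94. Among the 7, Il2ra and Myc passed the filter through CD4 alone, so that their direction was fixed by the filter. Both the count and the median include these genes and are a description. The other falls, which the rule did not name, were smaller: Il7r (-3.99), Trib2 (-3.16), Igf1r (-1.94), Ccnd3 (-1.11) and Bcl11b (-0.98). Il2ra, the alpha chain of the interleukin-2 receptor, had 47.4 to 55.4 CPM in CD4 and at most 6 counts in any lymphoma. Its fitted value of -7.92 (SE 0.541, edgeR adjusted p 7.33e-07) is given as a description. Myc, a main mediator of NOTCH1 in T cell leukaemia, had 21.9, 26.5 and 22.7 CPM in CD4 1, 2 and 3. In lymphoma it had at most 0.361 CPM. The fitted value of Myc, -7.18 (SE 0.658, edgeR adjusted p 6.26e-06), is likewise a description and supports no fall by itself. Tcf7, a factor induced by Notch in early progenitors, rose by 0.90 (SE 0.175, edgeR adjusted p 0.00130). Gata3 rose by 0.93 (SE 0.339), although its groups overlapped and 14 of 18 alternatives lost the call, among them the summed fit (adjusted p 0.0952). Ptcra, the pre-T cell receptor chain and a direct Notch target, had 1 count in lymphoma 56 and 0 in the other 8 libraries. It was not detectable in either group. The list mixes genes with many other inputs, and Tcf7, Il2ra and Myc are expressed by mature T cells too.

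**Figure D5:**
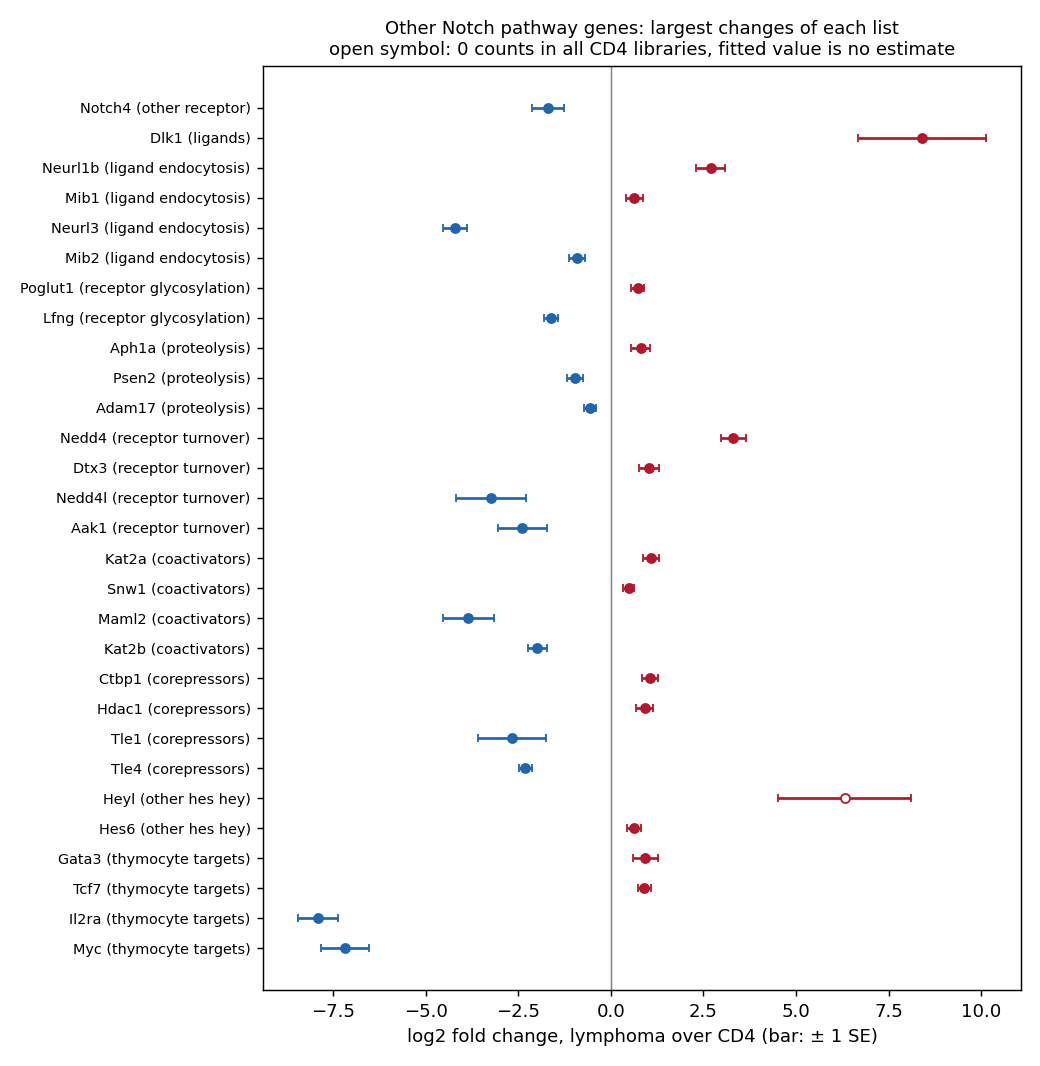
Log2 fold change of lymphoma over CD4 from edgeR, with bars of ± 1 SE, for the named genes of the 10 further lists, red where higher and blue where lower in lymphoma. Dlk1 at 8.41 and Il2ra at -7.92 lie farthest out, and the open symbol, Heyl, had no count in CD4, so its fitted value is no estimate. The values of Il2ra and Myc, which passed the filter through CD4 alone, are a description. So is that of Dlk1, which could pass it only through lymphoma.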

How the data were processed

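The deposited table holds the authors' raw counts of reads per gene (9 libraries, 46078 genes and 5 summary rows for reads in no gene). The submitters' processing notes name FastQC, HISAT2, SAMtools and HTSeq and the builds mm10 and GRCm38. Versions, annotation and strand setting are not given in the sources used here. Columns matching no sample numbered 0. Summary rows were left out of library sizes, and reads in genes were 38.7 to 49.1% of all reads in lymphoma and 27.8 to 35.0% in CD4.

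The test was run in R 4.3.3 by edgeR 4.0.16 (filterByExpr with a minimum count of 10, TMM, glmQLFit robust, glmQLFTest, no covariate), which tested 15401 genes. SE was derived as |log2 fold change| over the root of the F statistic. Log2 CPM used a prior count of 2. The script was tested on simulated data, where fitted changes were close to the true ones but many true changes were not called; the criterion for passing was loosened on recovery after the first run missed it. The members and lists were chosen with earlier results of these data known. The named genes are the members, the 2 largest rises and falls of each pathway list among called genes, and, for members with at least 10 CPM and more than the median SD in lymphoma, the 3 genes of highest correlation over lymphomas, of which 1 is not reported here. Dlk1 and Cd28 have another row with no counts, which was not used, and Ahsp was not found by symbol. Alternatives were RLE, upper quartile or no scaling, other filters, DESeq2 1.42.0, limma voom 3.58.1, lymphomas 34, 70 and 72 summed, GC and length offsets from GENCODE M21 (15329 tested genes matched), an adjusted p under 0.01, other prior counts, and each library left out. Gene positions are from GENCODE M21 and promoters from RefSeq, both GRCm38. Floors of 3 counts cover counting error only, as PCR copies were not marked.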

Additional observations from a re-analysis of the deposited data

Results flagged for a closer look

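For the 9 Notch genes with more than 3 counts in some lymphoma, it was asked whether 1 of the 6 lymphomas lay away from the others. A library was picked out when its gap to the nearest other, divided by the range of the group, was above Dixon's 95% critical value. This held for 2 genes, and lymphoma 53 was the highest library in both. Chance gives 0.45 if the genes are independent and their CPM normally distributed, which was not tested. As lymphoma 53 also stood apart over all tested genes (mean correlation 0.891), the number found is a description only. For Dtx1 the share was 0.794, with 5.02 CPM in lymphoma 53 and 2.02 CPM in the nearest lymphoma. For Hes1 it was 0.681, with 20.5 CPM in lymphoma 53 and 7.20 CPM in the nearest. On log2 CPM, a scale chosen after seeing the data, the share was 0.66 for Dtx1, still above the critical value, and 0.35 for Hes1, below it.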

How the results depend on the processing

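No paired analysis was possible because the groups share no replicate numbers. Over 142 fits of the 8 tested Notch genes, 126 kept both direction and side of the threshold, 15 lost the call, 1 gained it and 0 reversed. Over 509 fits of the 29 named pathway genes, 460 kept both, 49 lost the call and 0 reversed. The number of Notch genes changed, 6, was 3 with lymphomas 34, 70 and 72 summed and 2 at an adjusted p under 0.01. Leaving out 1 library gave 2 to 6 Notch genes, the lowest without CD4 3, and 35 to 45 further pathway genes, where 42 were called with all libraries. At an adjusted p under 0.01, 30 of the further genes were called. Upper quartile scaling moved the median log2 fold change of all genes from 0.04 to -0.06, and no Notch gene changed sign under any scaling. Low counts limit Notch1, Notch3, Hey1 and Nrarp: the SD of Notch3 among lymphomas was 1.23 with a prior count of 0.5 and 0.37 with 5, and that of Nrarp, with at most 1 count per lymphoma, was 0.26 with a prior count of 2 and 0.73 with 0.5. The fit with at least 10 counts in every library gave no value for Notch1 and Notch3.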

Other observations

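Egfl7, which was listed as an endothelial marker and encodes a secreted protein reported to bind Notch receptors, was chosen here after its values were seen. It had 23.5 CPM on average in lymphoma and 0.225 CPM in CD4, a log2 fold change of 6.60 (edgeR adjusted p 1.76e-06). No CD4 library gave more than 5 counts of it, so this value is a description. The endothelial markers Cdh5, Tek, Emcn and Tie1 were too low to be tested, with 0, 1, 1 and 2 counts at most in any lymphoma. Kdr, with at most 6 counts in any lymphoma, had a fitted value of -5.11 (edgeR adjusted p 0.00186), also a description. Eng, at 3.81 and 1.47 CPM on average in lymphoma and CD4, Flt1 and Esam did not pass the test. The 10 endothelial markers summed to 85.3 to 104 CPM in lymphoma and 200 to 211 CPM in CD4, most of it Pecam1 (64.5 and 193 CPM on average), which fell and is made by other blood cells too.

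Some turnover and coactivator genes that the rule did not name, chosen here after their values were seen, also fell. In their lists 4 turnover and 3 coactivator genes did not pass the test, and 21.9% of all tested genes were called lower. Numb, an inhibitor of Notch, fell by 1.90 and the ubiquitin ligase Itch by 1.38, and the histone acetyltransferase genes Crebbp and Ep300 by 1.11 and 0.95 on the log2 scale (edgeR adjusted p 0.000510, 0.000217, 8.16e-05 and 0.000815).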
